A study of Caenorhabditis elegans with 8 samples.

Results

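The sdz genes of the nematode *Caenorhabditis elegans* take their name from SKN-1-dependent zygotic transcripts of the early embryo, and 27 of them were measured here in starved first-stage (L1) larvae. A gene counted as measured when its symbol in the RefSeq gene table of assembly WBcel235 was sdz- followed by a number and its transcript had reads in at least 1 of 3 deposited comparisons. That table holds 35 such symbols, against 27913 named genes with reads in the whole series. Of the other 8 symbols, sdz-18 and sdz-25 were listed with a level of 0 in every comparison. The pseudogenes sdz-3, sdz-29 and sdz-34 and the coding genes sdz-13, sdz-32 and sdz-36 had no matching transcript and were not analysed here. The members were thus chosen by name and by the authors' mean read levels, with the fall of sdz-28 already known, so the levels and the sdz-28 value are given as descriptions.

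RNA came from 200 to 250 whole larvae per sample, kept on OP50 bacteria at 20 °C as parents and born overnight at 21 to 22 °C in M9 buffer without food. There were 2 samples each of spr-5 (by101) mutants, met-2 (n4256) mutants, the double mutant spr-5 (by101); met-2 (n4256) and the wild-type strain N2. spr-5 encodes a demethylase of lysine 4 on histone H3, and met-2 a methyltransferase of lysine 9 on histone H3, and the study asked which transcripts differ from N2 when 1 or both are lost. No label says that the 2 samples of a group came from separate cultures, so the p-values measure only the spread between these samples.

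SKN-1 is a maternally supplied transcription factor that specifies EMS, the blastomere whose daughters found the endoderm and part of the mesoderm. It switches on the GATA-type factors med-1 and med-2, which pass the signal to end-1 and end-3 for the gut and to tbx-35 for mesoderm. After hatching, SKN-1 works in the intestine and in a pair of head neurons and turns on detoxification genes such as gst-4 and gcs-1. An L1 larva is long past the embryonic stage for which the sdz genes are named.

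Each table holds the authors' fit of 1 mutant against N2 and no value of a single sample, so neither a spread between replicates nor an overlap of groups can be shown. The base mean is the average scaled read number per library over the 2 mutant and the 2 N2 libraries of a comparison. A log2 change is the deposited log2 fold change, mutant over N2, with the standard error (SE) of the authors' fit, and is drawn towards 0 where reads are few. The 3 comparisons share the N2 libraries and were scaled separately. The depth of single libraries was not derived. The lowest base mean above 0 in the authors' deposited tables stood at 0.219 for spr-5, 0.212 for met-2 and 0.197 for the double mutant, which sets the grain of the lowest values. The spr-5 transcript had a log2 change of 0.90 (SE 0.74) in spr-5 and 1.26 (SE 0.95) in double mutants, and the met-2 transcript -0.43 (SE 0.69) in met-2 and -0.45 (SE 0.97) in double mutants, per the authors' deposited tables. No adjusted p among them was under 0.05, and mutant alleles can still be transcribed, so the levels do not check the labels.

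Of the sdz genes, sdz-28 alone passed the authors' adjusted p of 0.05, and it fell in double mutants. No sdz gene passed in either single mutant, where 0.0114% of all named genes were called higher in spr-5 and 0.0579% in met-2, and 0 lower in both. sdz-33 in spr-5 (higher) and sdz-6 in double mutants (higher) had an unadjusted p under 0.05 only.

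Reads were concentrated in few members. sdz-24 held 45.4% of the base means summed over the members and the 3 comparisons, sdz-24 and sdz-28 together 66.4%, and the first 10 genes 92.4%. A base mean of at least 10 was reached by 10 of the 27 genes for spr-5, 5 for met-2 and 6 for double mutants. Below 1 were 3, 7 and 8 genes in the same order, among them sdz-16, which was listed at 0 in double mutants. The member with the smallest sum over the 3 comparisons was sdz-15 at 1.61, just inside the rule, and sdz-18 and sdz-25 at 0 lay just outside it. The median member had a base mean of 3.65 for spr-5, 2.90 for met-2 and 2.45 for double mutants, where the median of all named genes was 4.66, 4.02 and 3.34.

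**Figure D1:**
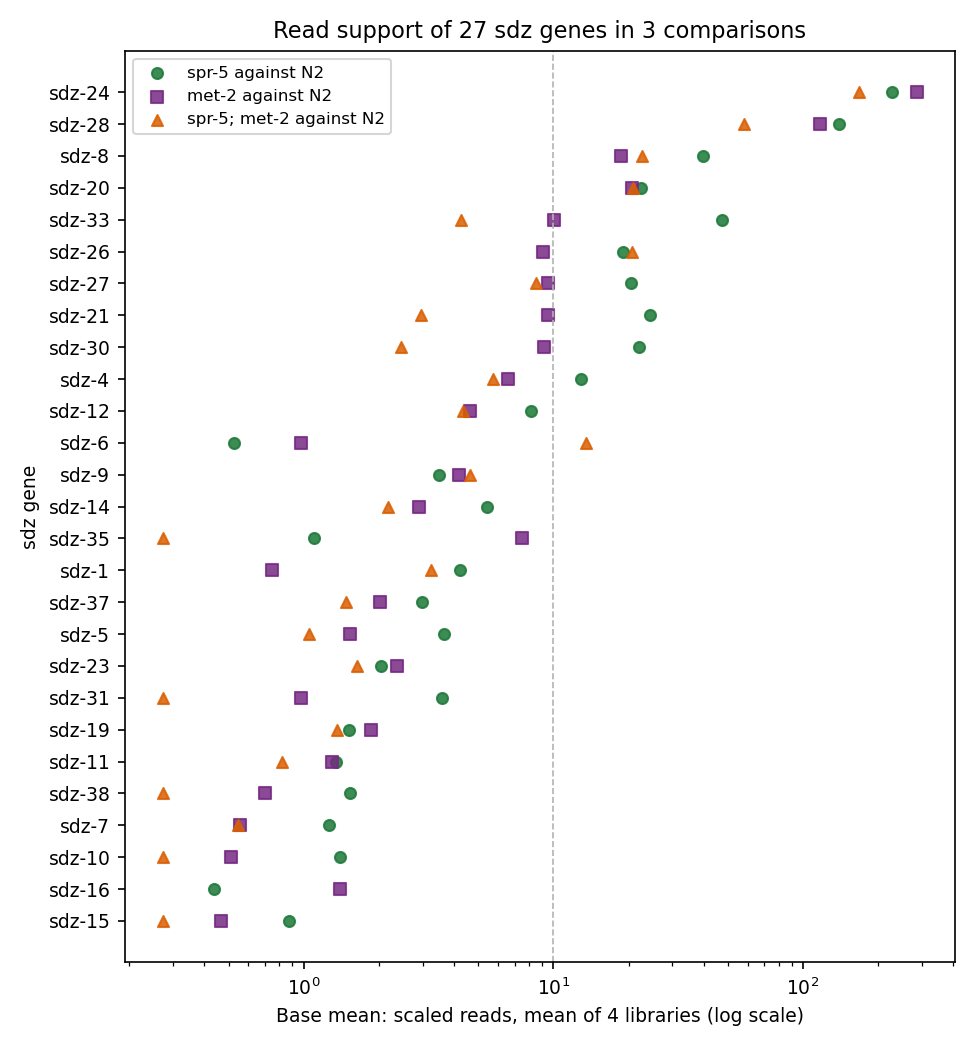
Base mean (scaled reads, mean of 4 libraries, log axis) of each of the 27 sdz genes in the 3 comparisons; the dashed line marks 10 and the 0 of sdz-16 in double mutants cannot be drawn. sdz-24 and sdz-28 stand above 50 in every comparison, sdz-28 is lowest in double mutants at 58.1, and sdz-6 reaches 13.5 there against 0.524 in spr-5.

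Per kilobase of exon the first 3 genes kept their order. sdz-24 had a base mean per kilobase of 244 for spr-5, 308 for met-2 and 181 for double mutants, and sdz-28 had 116, 97.0 and 48.0. sdz-8 followed with 47.9, 22.3 and 27.1, and sdz-33 had 47.2, 10.0 and 4.28. All 27 genes had 1 listed transcript each, so none of these values depends on which isoform stood for the gene.

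sdz-28 (NM_061791) was the member with the largest change. Its base mean in the authors' deposited tables reached 140 for spr-5, 117 for met-2 and 58.1 for double mutants. The log2 change in the authors' deposited table for double mutants was -4.73 (SE 1.19, p 7.46e-05, adjusted p 0.0155). The single mutants had 0.13 (SE 0.88) in spr-5 and -0.10 (SE 0.84) in met-2 in the authors' deposited tables, with an adjusted p near 1. Among the 10411 named genes at a base mean of 10 or more in double mutants, sdz-28 had the third lowest fold change, against place 6671 of 11036 from the lowest in spr-5 and place 4596 of 10653 in met-2. The difference between the double mutant and either single mutant was not tested. In whole larvae, fewer cells of a type and less RNA per cell cannot be told apart.

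A base mean and a fold change together imply a level for each group, if the fold change is taken at its deposited size. For sdz-28 in double mutants the authors' deposited table implies 4.22 scaled reads per library in spr-5; met-2 and 112 in N2, so that the double mutant was at 3.77% of N2. In spr-5 the implied levels were 146 in the mutant and 133 in N2, and in met-2 they were 113 in the mutant and 122 in N2. The N2 level of sdz-28 thus came out between 112 and 133 from the 3 authors' deposited tables, a range of 1.19-fold. The level implied for the double mutant stands far below all of these, while both single mutants stand close to N2. The level in double mutants rests on a log2 change of -4.73 with an SE of 1.19, so 3.77% is uncertain in both directions. The deposited change is drawn towards 0, but the gene was chosen with its fall known. Whether the implied level is too high or too low was not tested.

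**Figure D2:**
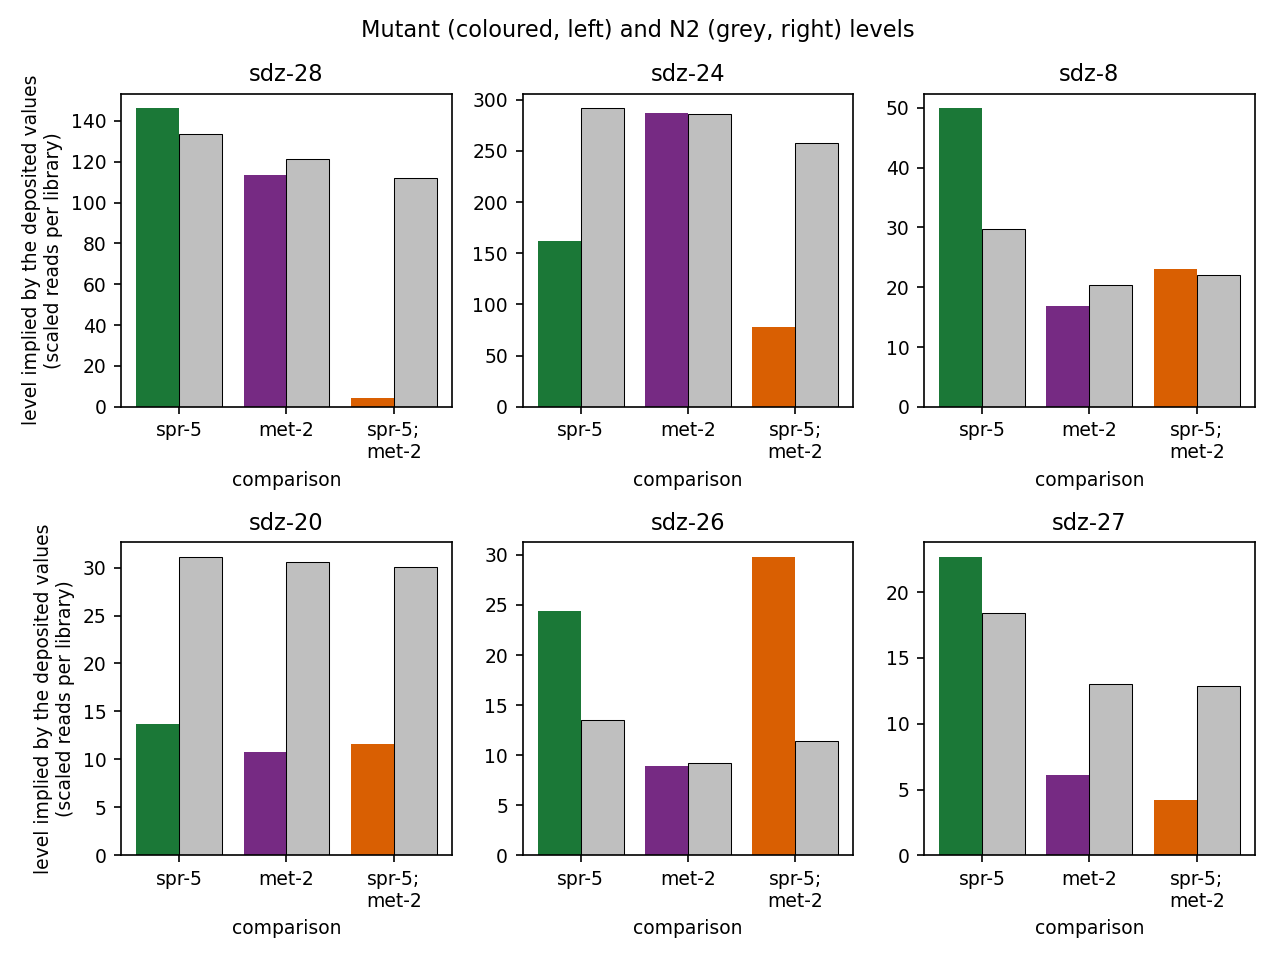
Levels of 6 sdz genes in scaled reads per library that the deposited base means and fold changes imply, with the mutant on the left (coloured) and N2 on the right (grey) of each pair; the values have no error bars because the tables used here hold no single samples. sdz-28 stands at 4.22 in double mutants and 112 in N2, and sdz-20 is between 10.8 and 13.7 in each mutant against 30.02 to 31.1 in N2.

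Calls of this kind were rare in double mutants. Of 10665 named genes with an adjusted p in that comparison, 7 were called lower (0.0656%) and 72 higher (0.675%). Among the sdz genes, 6 had an adjusted p there, of which 1 was called lower and 0 higher. At an adjusted p under 0.01, 0 members were lower (0.00938% of all), and with the Benjamini-Hochberg adjustment recomputed over every deposited p it was 1 member, sdz-28 (0.00823% of all). With so few members in the test, and with sdz-28 known beforehand, the count says nothing about the family. The smallest change called among all named genes of the double mutant was 3.57 on the log2 scale.

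The direction of the other members with most reads differed between genes. sdz-24 (NM_061380), the sdz gene with the most reads, had a base mean of 227 for spr-5, 286 for met-2 and 168 for double mutants in the authors' deposited tables. Its log2 change was -0.85 (SE 0.75) for spr-5, 0.0047 (SE 0.68) for met-2 and -1.72 (SE 1.08, p 0.109) for double mutants, per the authors' deposited tables. In the double-mutant comparison the implied levels were 77.9 in spr-5; met-2 and 257 in N2, and the N2 level came out between 257 and 291 from the 3 tables. The value in double mutants was the lower one, but it lay within 2 standard errors of 0.

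sdz-20 (NM_067346) was below N2 in each comparison, by values that did not pass a test. The authors' deposited tables gave a log2 change of -1.19 (SE 0.93) for spr-5, -1.51 (SE 0.89, p 0.0924) for met-2 and -1.37 (SE 1.28) for double mutants. It was the lowest sdz gene among those at a base mean of 10 or more in both single mutants. Implied levels were 13.7, 10.8 and 11.6 scaled reads in spr-5, met-2 and the double mutant, and between 30.02 and 31.1 in N2. The same N2 libraries enter each of these values, so the 3 are not independent.

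sdz-33 (NM_067145) had the largest value of the family in spr-5. Its base mean in the authors' deposited tables reached 47.2 for spr-5, 10.0 for met-2 and 4.27 for double mutants. In the authors' deposited table for spr-5 the log2 change was 2.38 (SE 0.90, p 0.00815), with an adjusted p of 1.00. It was 0.76 (SE 0.91) in met-2 and -0.26 (SE 1.37) in double mutants, per the authors' deposited tables. Among 11036 named genes at a base mean of 10 or more in spr-5 it had the 60th highest fold change. At an unadjusted p under 0.05, sdz-33 was the 1 member of 27 that was higher in spr-5, where 0.891% of all named genes with a p-value were higher, and 0 members were lower (0.293% of all). Its implied N2 level differed 3.27-fold between tables, so no level is given.

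sdz-21 (NM_065814) and sdz-30 (NM_060940) had a like order of values. The authors' deposited tables gave sdz-21 a base mean of 24.4 for spr-5, 9.48 for met-2 and 2.95 for double mutants. For sdz-30 the base means in the authors' deposited tables were 22.0, 9.18 and 2.45. Both thus had more reads in the spr-5 comparison than in either of the others. Log2 changes in spr-5 were 1.62 (SE 0.93, p 0.0801) for sdz-21 and 1.41 (SE 0.93, p 0.129) for sdz-30 in the authors' deposited table. In double mutants they were -0.58 (SE 1.34) and -0.87 (SE 1.29), per the authors' deposited table, and neither gene had an adjusted p there.

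sdz-6 (NM_075363) was the highest member in double mutants. Its base mean was 0.524 for spr-5, 0.976 for met-2 and 13.5 for double mutants in the authors' deposited tables. The log2 change in the authors' deposited table for double mutants was 3.31 (SE 1.31, p 0.0114, adjusted p 0.409). The single mutants had -0.04 (SE 0.61, spr-5) and 0.16 (SE 0.60, met-2) in the authors' deposited tables, from almost no reads. Among the 10411 named genes at a base mean of 10 or more in double mutants, it had the 167th highest fold change. sdz-6 reached a base mean of 10 only in this comparison, where its fold change is high, so this place is given as a description. At an unadjusted p under 0.05, 1 of 26 members was higher there (sdz-6) and 1 lower (sdz-28), where 1.78% of all named genes with a p-value were higher and 1.12% lower.

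The remaining genes among the first 10 by reads did not pass any test. sdz-26 (NM_064590) had log2 changes of 0.86 (SE 0.91) for spr-5, -0.06 (SE 0.91) for met-2 and 1.39 (SE 1.18) for double mutants in the authors' deposited tables. For sdz-8 (NM_073520) they were 0.74 (SE 0.90), -0.28 (SE 0.91) and 0.07 (SE 1.31), per the authors' deposited tables. The authors' deposited tables gave sdz-27 (NM_069698) 0.30 (SE 0.92), -1.09 (SE 0.91) and -1.62 (SE 1.34). sdz-4 (NM_061464) had 0.25 (SE 0.92), -0.40 (SE 0.84) and -0.93 (SE 1.36) in the authors' deposited tables. The levels implied for sdz-26 were 24.4, 8.88 and 29.8 scaled reads in spr-5, met-2 and the double mutant, and between 9.24 and 13.5 in N2. For sdz-8 they were 49.9, 16.8 and 23.1 in the mutants, and between 20.4 and 29.8 in N2. For sdz-27 they were 22.7, 6.11 and 4.19 in the mutants, and between 12.9 and 18.4 in N2. The N2 level of each of these 3 genes thus shifted by 1.43-fold to 1.47-fold with the table it was taken from. None of the 4 genes lay more than 2 standard errors from 0 in any comparison.

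**Figure D3:**
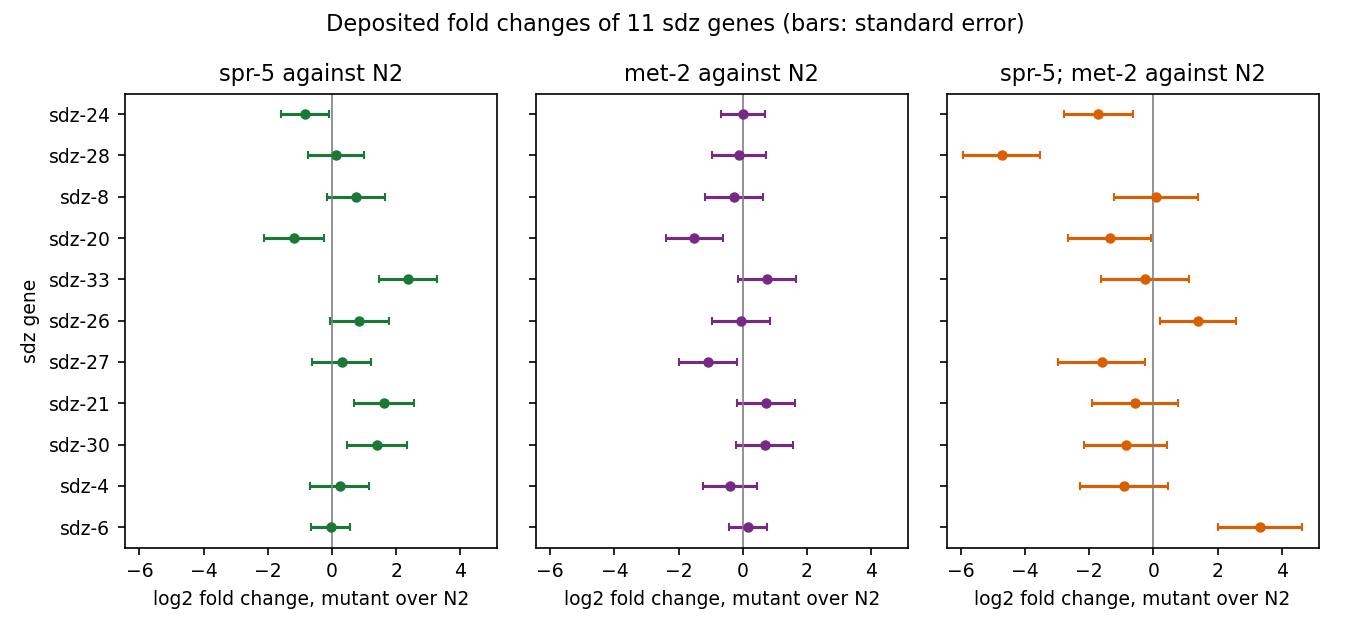
Deposited log2 changes (mutant over N2, points) with the authors' standard errors (bars) for the 11 sdz genes with the most reads, an unadjusted p under 0.05 or an extreme value, in spr-5, met-2 and the double mutant. sdz-28 lies at -4.73 in double mutants and near 0 in both single mutants, sdz-6 at 3.31 in double mutants, and sdz-33 at 2.38 in spr-5.

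The other 16 members had base means from 0.438 to 8.14 in spr-5, 0.465 to 7.52 in met-2 and 0 to 4.63 in double mutants, per the authors' deposited tables. Their fold changes ran from -0.48 to 0.65 in spr-5, -0.35 to 1.66 in met-2 and -0.94 to 1.14 in double mutants. In met-2, 0 members of the whole family had an unadjusted p under 0.05, where 0.934% of all named genes were higher and 0.514% lower. The smallest p among these 16 was 0.0589, for sdz-35 (NM_062072) in the authors' deposited table for met-2, where its log2 change was 1.66 (SE 0.88). Base means of sdz-35 were 1.10 for spr-5, 7.52 for met-2 and 0.272 for double mutants, per the authors' deposited tables. sdz-1 (NM_066518) had the highest value of this set in double mutants, 1.14 (SE 1.33) in the authors' deposited table. These 2 genes were singled out after their values were seen.

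At this depth some genes could not be told apart. sdz-15, sdz-35 and sdz-38 had the same base mean of 0.272 and the same log2 change of 0.36 in double mutants, a pair of values that 803 transcripts of the authors' deposited table shared. sdz-10 and sdz-31 shared a base mean of 0.272 and a log2 change of -0.31 with 1686 transcripts there in all. These base means lie close to 0.197, the lowest above 0 in that table, so the fold changes of such genes rest on almost no reads. A difference between the double mutant and N2 was not detectable for them at this depth.

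The share of members above 0 was highest in spr-5 and lowest in double mutants. In spr-5, 19 of 27 fold changes were above 0 (70.4%, against 54.6% of all named genes), with a median of 0.26 against 0.06 for all named genes. In met-2, 11 of 27 were above 0 (40.7%, against 13096 of 25686 named genes), with medians of -0.06 and 0.01. In double mutants, 7 of 26 were above 0 (26.9%, against 43.0% of all), with medians of -0.50 and -0.18. At a base mean of 10 or more, the fold change was above 0 for 8 of 10 members in spr-5 (80.0%, against 49.3% of all named genes), 2 of 5 in met-2 (40.0%, against 48.9%) and 3 of 6 in double mutants (against 51.3%). The base mean includes the mutant libraries, so this limit and the fold changes are not independent. sdz-4, sdz-21, sdz-27 and sdz-30 reached 10 in the spr-5 comparison alone, each with a fold change above 0 there. sdz-6 reached it in the double-mutant comparison alone, also with a fold change above 0. In double mutants, genes with few reads leaned below 0 in the table as a whole. Below a base mean of 10, 16 of 20 members (80.0%) and 63.2% of all named genes had a fold change below 0 there.

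The base mean was highest in the spr-5 comparison for 19 of 27 members (70.4%), and for 49.2% of all named genes. Summed over the members it was 618 for spr-5, 531 for met-2 and 350 for double mutants. Without sdz-24 and sdz-28 the sums of the other 25 were 252, 128 and 124. The lower total in the double-mutant comparison than in the met-2 comparison thus lay mostly in these 2 genes. Each total includes the N2 libraries and was scaled separately, so it is not a level of the mutant.

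**Figure D4:**
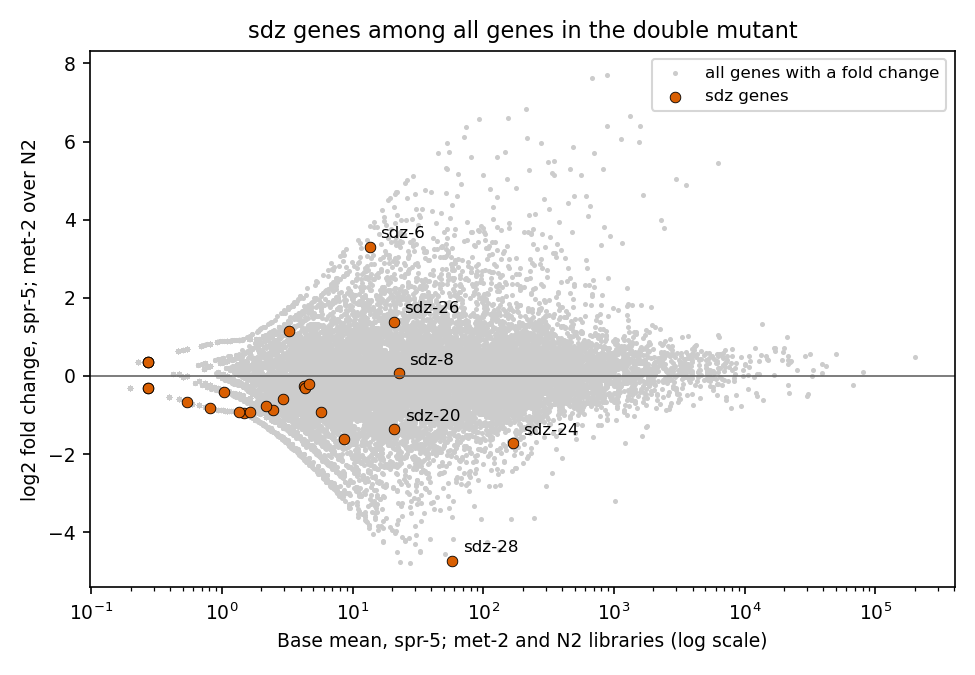
Log2 change of spr-5; met-2 over N2 against base mean (log axis) for all named genes (grey) and the 26 sdz genes with a fold change (orange). sdz-28, at a base mean of 58.1 and a fold change of -4.73, lies on the lower edge of the cloud, and most other sdz genes sit at the left where reads are few.

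The embryonic pathway for which the sdz genes are named was examined next. Of 20 genes of the SKN-1 endomesoderm cascade, 17 had reads, apr-1 was listed at 0, and med-1 and pos-1 had no matched transcript. None passed the authors' adjusted p of 0.05 or an unadjusted p of 0.05 in any comparison. Medians of their log2 changes were 0.23 for spr-5, 0.27 for met-2 and 0.35 for double mutants, with 10, 10 and 9 above 0 of the 16 that had a fold change in each. All named genes had medians of 0.06, 0.01 and -0.18. Of all named genes, 54.6% were above 0 in spr-5, 13096 of 25686 in met-2 and 43.0% in double mutants. At a base mean of 10 or more, 5 of 10 genes of the cascade were above 0 in each single mutant and 8 of 12 in double mutants. Their medians were -0.18, 0.10 and 0.74. skn-1 itself, the founding activator, had 1.05 (SE 0.80) for spr-5, 0.39 (SE 0.74) for met-2 and 0.92 (SE 0.98) for double mutants in the authors' deposited tables. For med-2, the GATA-type factor directly under SKN-1, the authors' deposited tables gave -0.93 (SE 0.93), -1.58 (SE 0.91) and 0.93 (SE 1.20), from base means of 18.8, 15.7 and 45.1. med-2 has a near-identical copy, med-1, so its value is uncertain.

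The endoderm factors end-1 and end-3 did not pass a test in any comparison. The authors' deposited tables gave end-1 base means of 3.59 for spr-5, 4.86 for met-2 and 22.9 for double mutants, where its log2 change was 0.98 (SE 1.21). end-3 had base means of 6.80, 8.22 and 1.63, and a log2 change of -0.93 (SE 1.18) in double mutants, per the authors' deposited tables. Both changes in double mutants lay within 1 standard error of 0.

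Of 15 other early zygotic genes, 14 had reads and pal-1 was listed at 0. Medians were -0.12 for spr-5, 0.0016 for met-2 and -0.47 for double mutants, where all named genes had 0.06, 0.01 and -0.18. An adjusted p was given for 12, 6 and 4 of these genes, and 0 passed. tbx-38, a T-box factor of the early anterior lineage, was the 1 gene with an unadjusted p under 0.05. It was lower in double mutants, where 1.12% of all named genes with a p-value were lower. Its log2 change in the authors' deposited table for double mutants was -2.85 (SE 1.30, p 0.0286, adjusted p 0.650). tbx-38 has a close relative, tbx-37, so reads can be shared.

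None of the genes that SKN-1 controls in larvae was called in any comparison. Of 8 (wdr-23, which encodes an inhibitor of SKN-1, gcs-1 and 6 glutathione S-transferases), 6 were above 0 in spr-5, as were 6 for met-2 and 6 for double mutants, with medians of 0.32 for spr-5, 0.15 for met-2 and 0.77 for double mutants. The 2 below 0 were gst-7 and gst-10 in spr-5, gst-12 and gst-38 in met-2, and gst-10 and gst-38 in double mutants. None of the 8 passed an unadjusted p of 0.05. The share above 0, 75.0%, stood against 54.6% of all named genes in spr-5, 13096 of 25686 named genes in met-2 and 43.0% in double mutants.

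**Figure D5:**
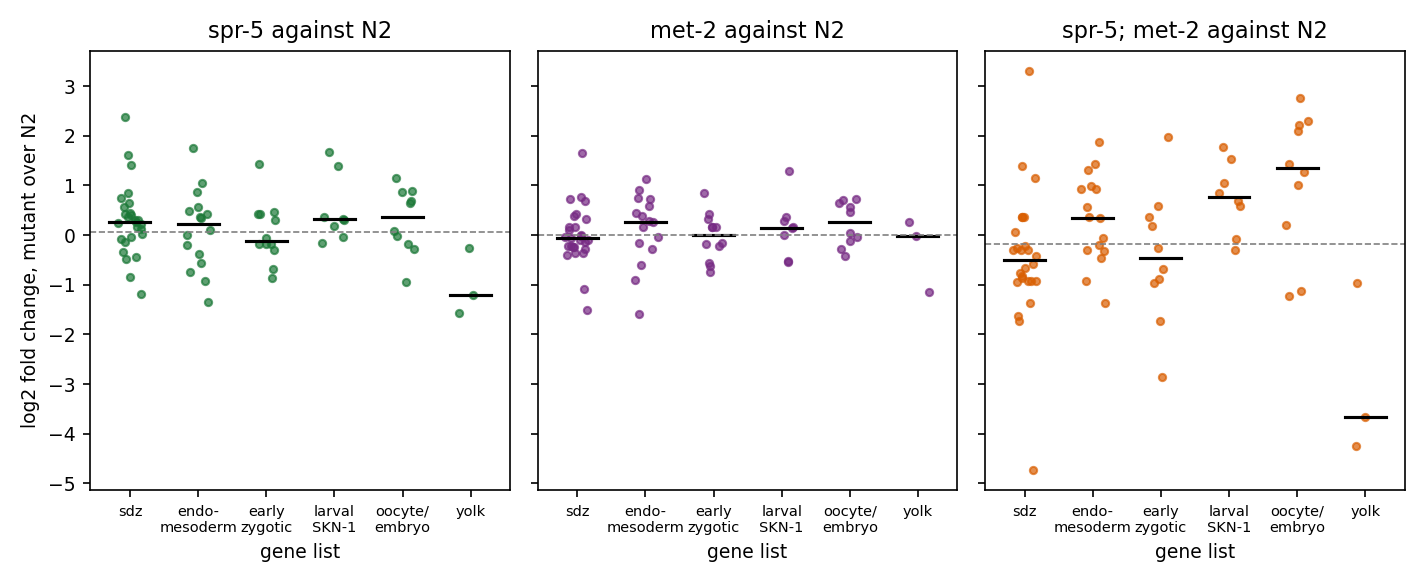
Log2 changes (mutant over N2) of the single genes (points) and their median (black line) for the sdz genes, 3 lists around SKN-1 and the early embryo, and markers of oocytes and early embryos and of adult yolk, in the 3 comparisons; the dashed line is the median of all named genes. sdz-28 at -4.73 and 2 yolk genes are the lowest points in double mutants.

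Markers of the tissues and stages a sample of larvae can hold were read beside these values. Larval intestine, body wall muscle and pharynx markers had summed base means of 15227 or more in every comparison. Most of each sum came from 1 gene: asp-1, unc-54 or myo-2. The pharynx marker ceh-22 had a base mean of 1.14 or less. Hypodermis and neuron markers had low sums, from 49.6 to 79.5. Each gene was represented by 1 transcript, so the sums do not measure amounts of tissue. Markers of the adult yolk were lowest against N2 in double mutants, as sdz-28 was, but they were not below N2 there alone. Of 5 vitellogenin genes, 3 had reads, vit-6 was listed at 0 and vit-3 was not matched. The 3 were below 0 in double mutants and in spr-5, and 2 of them in met-2. In double mutants vit-5 fell: the authors' deposited table gave it a log2 change of -4.25 (SE 1.04) with an adjusted p of 0.00947. In the single mutants the authors' deposited tables gave vit-5 -1.57 (SE 0.77, unadjusted p 0.0421, not called) for spr-5 and -0.03 (SE 0.86) for met-2. vit-4 had -3.66 (SE 1.35, p 0.00649, adjusted p 0.310) in the authors' deposited table for double mutants. vit-4 and vit-5 have near-identical relatives, so their values are uncertain. The summed base mean of the yolk genes was 169 for spr-5, 240 for met-2 and 125 for double mutants. Markers of oocytes and early embryos went the other way in double mutants, with 8 of 10 above 0 (43.0% of all named genes) and a median of 1.35. The 2 below 0 were oma-1 at -1.13 (SE 1.04) and nos-2 at -1.23 (SE 1.26) in the authors' deposited table. None was called. At an unadjusted p under 0.05, where 1.78% of all named genes were higher, 4 were higher (cbd-1, mex-5, oma-2 and puf-5, named after their values were seen). The log2 changes of these 4 in the authors' deposited table ran from 2.09 for cbd-1 to 2.77 for mex-5. Over all 10 measured markers of oocytes and early embryos, the summed base mean was 910 for spr-5, 828 for met-2 and 2027 for double mutants. The part of these markers in the sdz values was not tested.

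Genes next to the members in assembly WBcel235 were compared with them. The 27 genes had 49 distinct measured neighbours, counting the nearest coding or sdz gene on either side. In met-2 and in double mutants, 1 neighbour each was called higher and 0 lower, and in spr-5 none was called. At an unadjusted p under 0.05, 1 of 49 neighbours was higher and 0 lower in spr-5 (nuaf-3, beside sdz-27), 2 of 48 higher and 1 lower in met-2, and 3 of 48 higher and 0 lower in double mutants. Among them was F53A2.3 beside sdz-20, with log2 changes of 1.83 (SE 0.88, p 0.0386) for met-2 and 2.71 (SE 1.20, p 0.0237) for double mutants in the authors' deposited tables, where sdz-20 lay below 0. The others were clp-9 beside sdz-31 (lower in met-2), rcd-1 beside sdz-11 (higher in double mutants) and ZK892.6. Of all named genes with a p-value, 0.891% were higher at an unadjusted p under 0.05 for spr-5, 0.934% for met-2 and 1.78% for double mutants. The shares lower were 0.293%, 0.514% and 1.12% in the same order. An adjusted p was given for 24 neighbours in met-2 and 25 in double mutants. Of all named genes with an adjusted p, 0.0579% were called higher for met-2 and 0.675% for double mutants. With 1 called neighbour in each of these 2 comparisons, a difference from the shares was not tested. The called neighbour in both was ZK892.6, which lies beside sdz-38, a gene of the early mesodermal MS lineage, and was already known to be among the largest rises. The authors' deposited tables gave ZK892.6 log2 changes of 4.81 (SE 0.83) for met-2 and 6.83 (SE 1.13) in double mutants, with base means of 74.7 and 212. sdz-38 (NM_063757) had base means of 0.698 and 0.272 in the same authors' deposited tables, and log2 changes of 0.38 (SE 0.59) and 0.36 (SE 1.15). The gene on the other side of sdz-38, lec-3, had 0.07 (SE 0.85) in met-2 and 0.74 (SE 1.11) in double mutants, per the authors' deposited tables. Neither sdz-38 nor lec-3 passed an unadjusted p of 0.05, and sdz-38 had almost no reads.

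The measured neighbour of sdz-28 is hpo-7, and on its other side lies the pseudogene sdz-29, which was not analysed here. hpo-7 had base means of 3.75 for spr-5, 4.09 for met-2 and 2.18 for double mutants in the authors' deposited tables. Its log2 change in double mutants was -1.04 (SE 1.22), per the authors' deposited table, from too few reads to show a fall of the size of sdz-28. Whether sdz-28 shares sequence with sdz-29 was not examined. sdz-9 and sdz-10 were the members that lie next to each other. The authors' deposited tables gave sdz-9 (NM_061958) base means of 3.49 for spr-5, 4.18 for met-2 and 4.63 for double mutants, and sdz-10 (NM_061957) 1.40, 0.511 and 0.272. The use of strand in counting is not given in the sources used here, so values of overlapping neighbours would be uncertain.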

How the data were processed

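Per the submitters' processing notes, reads were handled with FastQC, Trimmomatic, featureCounts and DESeq2 (given as 2.11.40.2) on build ce10. The aligner, annotation and strand are not given in the sources used here. The authors deposited 1 headerless table for each mutant against N2 with 50832 RefSeq transcripts. Each holds a base mean (a signal: scaled counts averaged over 4 libraries), a log2 fold change, its standard error, the Wald score and the raw and adjusted p-value, as the authors deposited them. In spr-5 every transcript with a p also has an adjusted p, while in met-2 and the double mutant transcripts with few reads have none (lowest base mean with one: 6.52 and 9.16). Columns of single samples left unused numbered 0.

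Symbols came from RefSeq (WBcel235), which matched 46074 transcripts (90.6%). It was used for names and neighbours, and no coordinate is given because the builds differ. Each gene was represented by the transcript with the largest sum of base means. Exon lengths came from the Ensembl annotation of WBcel235. No test was added: calls are the authors' adjusted p under 0.05, and shares of all genes use the same transcript rule. Implied levels solve base mean and fold change for 2 groups of equal size, and are printed where the N2 level differed under 1.5-fold between tables, a limit set after the values were seen. Genes named with values were the first 10 members by reads, members with p under 0.05, the extremes at a base mean of at least 10, genes of the 3 lists around SKN-1 and the early embryo with p under 0.05, skn-1, med-2, end-1 and end-3, and spr-5 and met-2. Other members, markers and neighbours given with values were chosen after the values were seen. Members and lists were chosen with earlier results of these data known. Python 3.11.15 with pandas 2.3.3 was used, and the adjustment was tested on simulated data.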

Additional observations from a re-analysis of the deposited data

How the results depend on the processing

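No paired analysis was possible because no value of a single sample is in the tables, and no sample could be left out for the same reason. The counts of called sdz genes, 0 in each single mutant and 1 in the double mutant, were recomputed at an adjusted p under 0.01, with Benjamini-Hochberg adjustment over every deposited p, at a base mean of at least 10, and with the transcript of largest base mean in each comparison. The 0.01 threshold and the base mean limit can only remove calls, and sdz-28, at a base mean of 58.1, lies above that limit. All 27 members had 1 listed transcript each, so the choice of transcript could not change the sdz counts. The last 2 alternatives are therefore no check of the sdz counts. Under the stricter threshold the double mutant had 0, since sdz-28 has an adjusted p of 0.0155 in the authors' deposited table, and the cause is the threshold itself. With the adjustment over every deposited p, sdz-28 had an adjusted p of 0.0349 by the Benjamini-Hochberg method and was 1 of 2 named genes called lower. The lists around SKN-1 had 0 calls under each of these alternatives, and at an unadjusted p under 0.05 only tbx-38 in the double mutant. The medians of the sdz genes kept their sign. With a base mean of at least 10 they were 0.52 (spr-5), -0.10 (met-2) and -0.65 (double mutant), and with at least 1 they were 0.26, -0.13 and -0.77, against 0.26, -0.06 and -0.50 over all members. The cause of these shifts was not tested, the sets of genes differ, and the base mean that selects them includes the mutant libraries. In the double mutant, 21 of 27 genes had a base mean under 10, and 6 had an adjusted p.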
